A study of Rattus norvegicus with 12 samples.

Results

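The transcripts described here encode the double-stranded RNA-binding proteins Staufen1 and Staufen2 and the fragile X family proteins FMRP and FXR1, measured in RNA that was pulled down with Staufen2 itself. Their probes, 4 of 22226 on the array, were taken by name: the symbols of the Staufen genes Stau1 and Stau2 and of the fragile X family genes Fmr1 and Fxr1, or a gene description that contains the word staufen. Each gene had 1 probe, and Fxr1 stands in the file under the symbol Fxr1h_predicted, of which the last part was removed before matching. The third fragile X family gene, Fxr2, is listed under a symbol that this choice did not take, so it is given below as a neighbour of the family. The Stau2 probe is marked by the manufacturer as matching all known forms of the transcript, the Fxr1 probe as matching 1 of several forms, and the Stau1 and Fmr1 probes as matching the single known form.

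RNA bound to Staufen2 in whole brains of Sprague-Dawley rat embryos was compared with RNA brought down by preimmune serum. The Staufen2 group held 6 immunoprecipitates made with a rabbit polyclonal antibody (replicates 0 to 5, where 0 is the array labelled without a number). The preimmune group held 6 immunoprecipitates made from the same kind of lysate with preimmune antibody (replicates 1 to 6). The protocols give the age as E17-E18, while the tissue label reads P18. No label ties an array to its own brain or lysate, so the p-values cover only the variation among these 12 arrays, which may be technical in part. The input RNA of the lysates was not analysed here, so a value says how much of a transcript came down, not which share of it did. In whole-brain lysates, fewer cells of a type and less RNA per cell cannot be told apart.

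Staufen proteins bind double-stranded stretches of mRNA, mostly in untranslated regions, and act in mRNA transport, translation and decay. Staufen1 is found in many tissues and takes part in Staufen-mediated mRNA decay, while Staufen2 is enriched in the brain and moves with RNA particles into dendrites. FMRP, the protein lost in fragile X syndrome, binds mRNA on polyribosomes and restrains translation, and its paralogs FXR1 and FXR2 share its RNA-binding domains. All of these proteins have been found in neuronal RNA granules, and the values below concern the mRNAs that encode them.

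Staufen2 immunoprecipitates carried far more RNA than preimmune ones, and this touches every probe. The share of probes detected (detection p-value under 0.05) was 45.4% to 48.8% on the Staufen2 arrays and 11.6% to 34.8% on the preimmune arrays. An array's yield was taken from the 1683 probes detected on all 12 arrays. The background-subtracted signal of each probe was divided by that probe's mean over the Staufen2 arrays. The median of these ratios, as a percentage, was the yield. It was 70.8% to 120% on Staufen2 arrays and 1.62% to 24.0% on preimmune arrays, lowest on preimmune replicates 6 (1.62%) and 2 (3.50%). Precision is limited by the number of arrays. As a check of the tissue, 6 of the 7 listed markers of neurons had a probe, and all 6 were detected on every Staufen2 array, with summed mean raw signals of 24129 in Staufen2 and 2883 in preimmune immunoprecipitates. Detection did not set neurons apart, since all 5 progenitor probes and the astrocyte, endothelium and mesenchyme probes were also detected on every Staufen2 array. The oligodendrocyte probe and 1 of 2 microglia and leukocyte probes were not. Both haemoglobin probes, markers of red blood cells, were detected on all 12 arrays and summed to 22114 in Staufen2 and 8064 in preimmune immunoprecipitates, and their part in the results was not tested.

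Relative to the other probes, the mRNAs of both Staufen paralogs were higher in Staufen2 immunoprecipitates after quantile scaling, though the Stau2 call was lost in some settings. Fxr1 was also called, but lay below the median of all probes with median centring in place of quantile scaling. The Stau1 difference was the largest of the 4 in this fit. Fmr1 did not pass the test. Each value below is given first as raw signal, where the whole difference in RNA yield is included, and then after scaling of the arrays to a common distribution.

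Stau1 encodes Staufen1, the paralog that was not the target of the antibody. Its raw signal on Staufen2 arrays was 1150 at the lowest, 1860 at the median and 3425 at the highest, and on preimmune arrays it was 65.8, 113 and 141. The lowest Staufen2 array lay above the highest preimmune array, and 4 of 6 preimmune arrays detected the probe. Mean raw signal was 1999 ± 839 (SD, n = 6) in Staufen2 and 109 ± 32.1 (SD, n = 6) in preimmune immunoprecipitates, a ratio of 18.3 (two-sided exact permutation test on log2 raw signal, p = 0.00216, the smallest that 6 against 6 arrays allow). After background correction and quantile scaling, the log2 difference was 1.85 ± 0.32 (SE; limma, adjusted p = 0.000426), higher than those of 96.6% of the 9136 tested probes. The normalized Stau1 values of the 2 groups did not overlap.

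Stau2 encodes the protein that the antibody recognises. Raw signal was 480 at the lowest, 612 at the median and 916 at the highest on Staufen2 arrays, against 67.4, 95.4 and 135 on preimmune arrays, of which 3 detected the probe. The raw groups did not overlap (exact permutation test, p = 0.00216). Mean raw signal was 656 ± 181 (SD, n = 6) in Staufen2 and 97.5 ± 26.7 (SD, n = 6) in preimmune immunoprecipitates, a ratio of 6.73. The normalized log2 difference was 0.83 ± 0.26 (SE; limma, adjusted p = 0.0182), above those of 86.1% of tested probes. The normalized groups overlapped: Staufen2 replicate 4, at 6.64, lay below the highest preimmune array at 6.87. This call ended when only preimmune replicates 1, 3 and 4, the arrays with the highest detected shares, stood for the preimmune group (0.42, limma adjusted p = 0.101). That choice was made after seeing the data. The call also ended within each run of array codes described below, and with the shared replicate numbers as a block (0.69, limma adjusted p = 0.0775).

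Fmr1 encodes FMRP. Its raw signal on Staufen2 arrays was 172 at the lowest, 340 at the median and 481 at the highest, and on preimmune arrays it was 64.1, 87.1 and 109, with 4 of 6 preimmune arrays detecting it. The raw groups were apart here too (exact permutation test, p = 0.00216), with means of 336 ± 105 (SD, n = 6) and 87.9 ± 16.6 (SD, n = 6) and a ratio of 3.83. After scaling, the difference of 0.27 ± 0.16 (SE; limma, adjusted p = 0.185) did not pass the test. It lay above those of 68.3% of tested probes, and the normalized groups overlapped. With median centring in place of quantile scaling, Fmr1 was at 0.92 and passed (limma, adjusted p = 0.000143), under a setting that called 6765 of all tested probes higher.

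Fxr1 encodes FXR1, a paralog of FMRP that is best known from striated muscle. Its raw signal was 142, 231 and 288 at the lowest, median and highest Staufen2 array and 66.95, 77.4 and 91.6 on preimmune arrays, and only 2 preimmune arrays detected it. The raw groups did not overlap (exact permutation test, p = 0.00216). Means were 232 ± 53.4 (SD, n = 6) in Staufen2 and 79.3 ± 9.08 (SD, n = 6) in preimmune immunoprecipitates, a ratio of 2.93. The normalized difference was 0.29 ± 0.06 (SE; limma, adjusted p = 0.00104). It lay above those of 69.5% of tested probes, and the normalized groups did not overlap.

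The third family member, Fxr2, had raw signals of 265 ± 47.9 (SD, n = 6) in Staufen2 and 86.0 ± 11.7 (SD, n = 6) in preimmune immunoprecipitates, and 4 preimmune arrays detected it. Its normalized difference was -0.01 ± 0.19 (SE; limma, adjusted p = 0.957). A further probe, described as similar to Fxr2, was detected on 0 of the 12 arrays and was not tested.

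**Figure D1:**
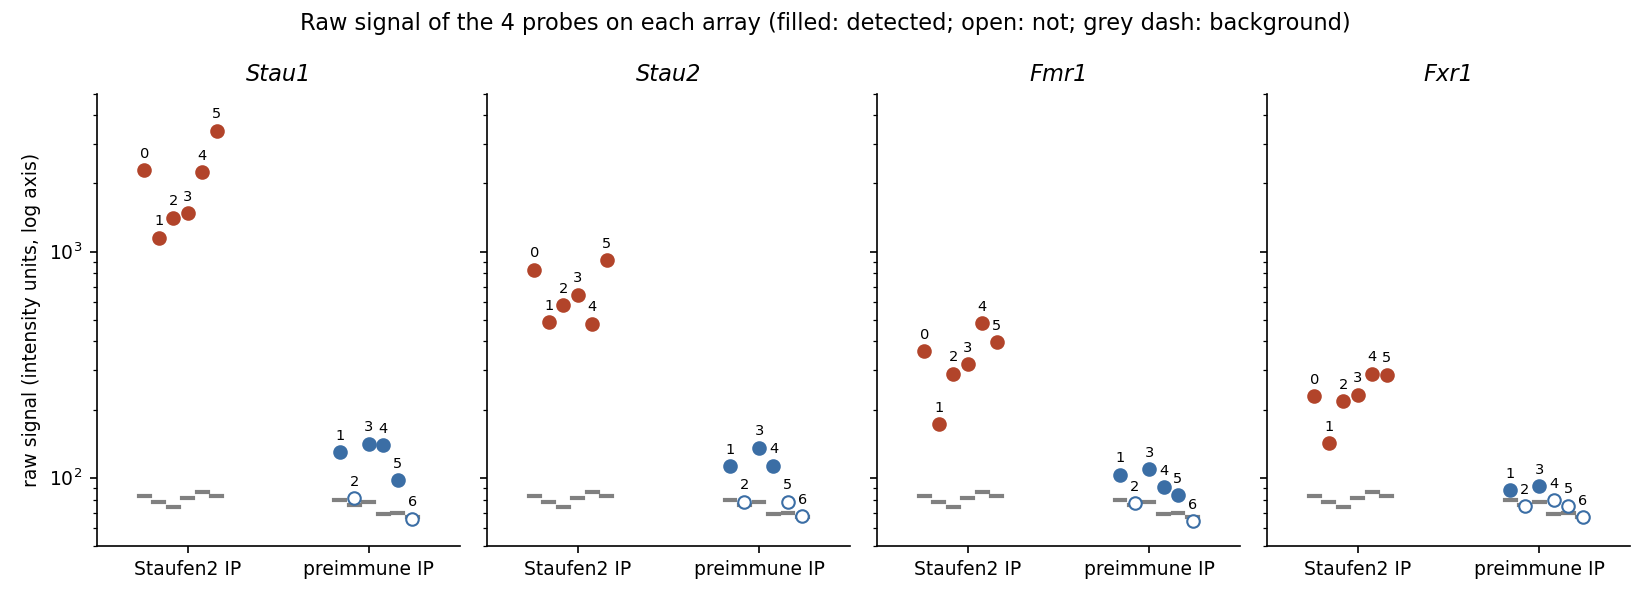
Raw signal (intensity units, log axis) of the Stau1, Stau2, Fmr1 and Fxr1 probes on each Staufen2 (red) and preimmune (blue) array, numbered by replicate. Filled points were detected, open points were not, and grey dashes mark the background of each array. Every Staufen2 point lies above every preimmune point in all 4 panels, and the preimmune points of replicates 2 and 6 sit near the background.

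These calls were read against the whole array. Of the 4 probes 3 were called higher, where 31.9% of all 9136 tested probes were called higher (2910) and 14.6% lower (1331) with limma at an adjusted p under 0.05. With median centring these counts were 6765 and 554. Raw groups without overlap, as seen for all 4, were seen for 91.1% of tested probes (8325), so they say nothing particular about these genes. Normalized groups without overlap in the higher direction, as for Stau1 and Fxr1, were seen for 20.9% of tested probes. The median difference of all tested probes was 0.06, with quartiles at -0.31 and 0.42, so Stau1 and Stau2 lay above the upper quartile and Fmr1 and Fxr1 within the middle range. The median moved to 0.62 with median centring, where Stau1, Stau2, Fmr1 and Fxr1 were at 3.57, 1.99, 0.92 and 0.56. Without scaling it was 2.57, with 9135 of 9136 probes above 0 at an adjusted p under 0.05, and the 4 genes were at 5.52, 3.94, 2.88 and 2.51. Fxr1 thus lay above the median of all probes with quantile scaling and below it with median centring. Centring moves all probes of an array by the same amount. The differences without scaling therefore order the probes in the same way and are not a separate check.

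Because several preimmune values lay at background, the signals were also set on a linear scale as background-subtracted (net) signal divided by the yield of the array. For Stau1 this was 1403 to 2786 on Staufen2 arrays. On preimmune replicates 1, 3 and 4, chosen as above, it was 265 to 344, and the ratio of means was 6.03. These preimmune arrays are all in the first run of array codes described below, while Staufen2 replicates 4 and 5 are in the second. The Stau2 values were 363 to 764 on Staufen2 arrays and 211 to 240 on those 3 preimmune arrays, with a ratio of 2.59. Neither gene's ranges overlapped.

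For Fmr1 the net signal per unit of yield was 133 to 364 on Staufen2 arrays and 104 to 162 on the same 3 preimmune arrays, with a ratio of 1.91 and overlapping ranges. Fxr1 ran from 90.1 to 186 on Staufen2 arrays and from 49.9 to 58.0 on those preimmune arrays, with a ratio of 2.74 and no overlap. Preimmune replicate 4 missed the detection threshold for Fxr1 (detection p-value 0.0593). The net Fxr1 signals of preimmune replicates 1, 3 and 4 were only 8.18, 13.9 and 10.4, so the Fxr1 ratio rests on values near background.

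A limma fit of the log2 net signals, over the 5653 probes detected on these 3 preimmune and all 6 Staufen2 arrays, called 36.3% of probes higher and 25.0% lower, with a median of 0.18. Stau1 was higher by 2.17 ± 0.23 (SE, limma adjusted p = 8.3e-06) and lay above 93.6% of probes. Stau2 was higher by 0.95 ± 0.24 (SE, limma adjusted p = 0.00452), above 72.5%. Fmr1 was at 0.52 ± 0.28 (SE, limma adjusted p = 0.130), above 60.4%, and did not pass. Fxr1 was outside this fit because replicate 4 did not detect it.

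**Figure D2:**
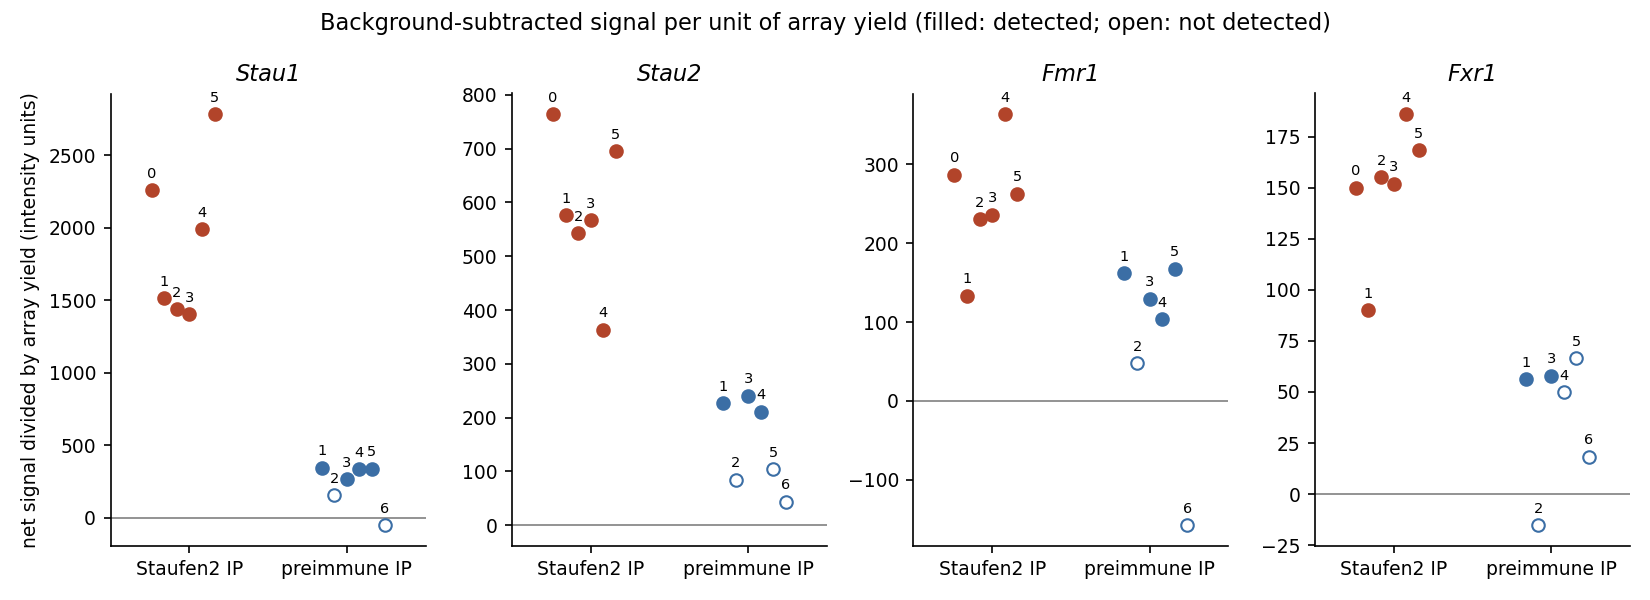
Background-subtracted signal divided by the yield of the array (intensity units, linear axes that differ between panels) for the 4 probes on each Staufen2 (red) and preimmune (blue) array. Filled points were detected and open points were not. For Stau1 the Staufen2 arrays lie between 1403 and 2786 and preimmune replicates 1, 3 and 4 between 265 and 344. For Fmr1 Staufen2 replicate 1, at 133, falls among the preimmune arrays.

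The 4 genes were then compared with each other. For each array the normalized log2 value of one probe was subtracted from that of another, and this within-array difference was compared between the groups with a two-sided exact permutation test, adjusted over the 6 pairs. The level of a within-array difference depends on the probes, so only its change between groups is compared. Quantile scaling and the offset draw values near the background together, so the size of such a change also depends on how bright a probe is, and Stau1 was the brightest of the 4 probes on Staufen2 arrays. On these values the change of Stau1 exceeded that of each of the other 3. Stau1 minus Stau2 was 1.43 ± 0.39 (SD, n = 6) on Staufen2 arrays and 0.41 ± 0.44 (SD, n = 6) on preimmune arrays, a difference of 1.01 (exact permutation test, adjusted p = 0.0173). Preimmune replicate 5, at 1.18, lay above Staufen2 replicates 1, 2 and 3, so these 2 groups overlapped.

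Stau1 minus Fmr1 averaged 2.20 ± 0.32 (SD, n = 6) on Staufen2 arrays and 0.63 ± 0.44 (SD, n = 6) on preimmune arrays, a difference of 1.57 (exact permutation test, adjusted p = 0.00649). Stau1 minus Fxr1 differed by 1.56 (exact permutation test, adjusted p = 0.00649). In both pairs all 6 Staufen2 arrays lay above all 6 preimmune arrays. The test on net signal used preimmune replicates 1, 3 and 4 and 3 pairs. There Stau1 exceeded Stau2 by 1.22 and Fmr1 by 1.66 more on Staufen2 than on preimmune arrays (exact permutation test, adjusted p = 0.0179 for each). This comparison is unbalanced by run of array codes. On quantile-scaled values Stau1 minus Stau2 was 2.01 and 1.83 on Staufen2 replicates 4 and 5, from the second run. It was 1.11 to 1.32 on the Staufen2 arrays of the first run.

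Stau2 was not separated from the fragile X family genes by this test. Stau2 minus Fmr1 was 0.77 ± 0.40 (SD, n = 6) on Staufen2 and 0.21 ± 0.39 (SD, n = 6) on preimmune arrays, a difference of 0.56 (exact permutation test, adjusted p = 0.0617). Staufen2 replicate 4 had -0.0026, where the other 5 Staufen2 arrays had 0.78 to 1.13, and without it the difference was 0.68 (exact permutation test, adjusted p = 0.00974). The pair also passed without preimmune replicate 3 (0.66, exact permutation test, adjusted p = 0.0416) and without preimmune replicate 4 (0.66, exact permutation test, adjusted p = 0.0468). Stau2 minus Fxr1 differed by 0.54 (exact permutation test, adjusted p = 0.0649) and passed without the same arrays, at 0.62, 0.66 and 0.64. On net signal Stau2 minus Fmr1 differed by 0.44 (exact permutation test, adjusted p = 0.333). With median centring both pairs passed, at 1.07 and 1.43 (exact permutation test, adjusted p = 0.0130 and 0.00325). Centring cancels in a within-array difference, so these are differences of unscaled values. On arrays of low yield such values draw together near background, and the brighter probe changes more. That setting therefore cannot decide whether the genes separate. A p that misses the threshold does not show that the genes behave alike.

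Fmr1 minus Fxr1 was 0.28 ± 0.12 (SD, n = 6) on Staufen2 arrays and 0.30 ± 0.26 (SD, n = 6) on preimmune arrays, a difference of -0.02 (exact permutation test, adjusted p = 0.887). With median centring, which has the limit given above, it was 0.36 (exact permutation test, adjusted p = 0.00519). Neither the order of these 2 genes nor a difference between them held across scalings.

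**Figure D3:**
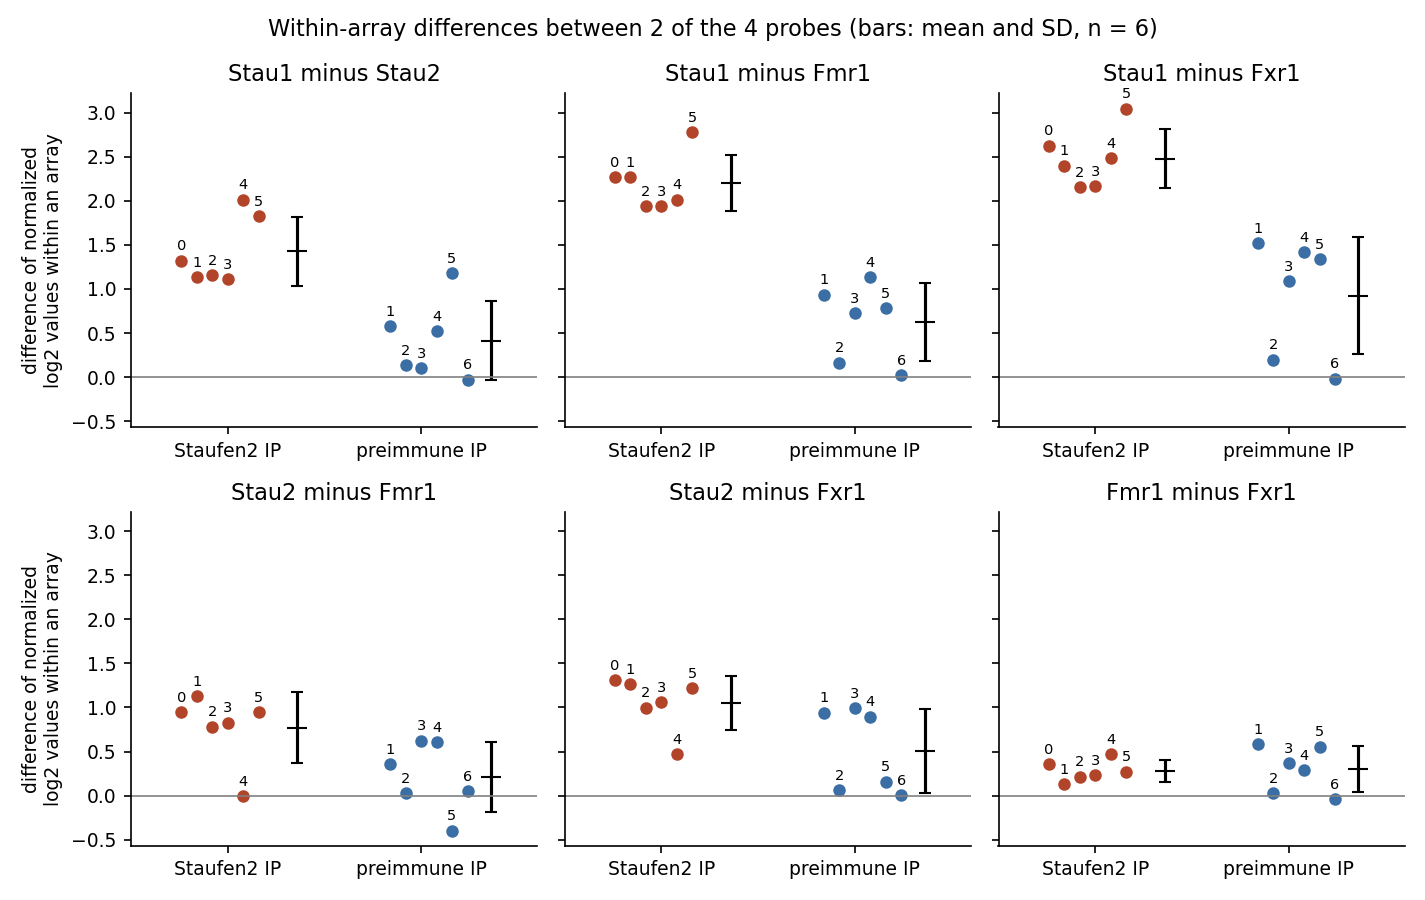
Within-array differences of normalized log2 values for the 6 pairs among Stau1, Stau2, Fmr1 and Fxr1, with Staufen2 arrays (red) left of preimmune arrays (blue), numbered by replicate, and bars for mean and SD (n = 6). In the panels for Stau1 minus Fmr1 and Stau1 minus Fxr1 the groups do not overlap. Staufen2 replicate 4, at -0.0026, stands below the other Staufen2 arrays for Stau2 minus Fmr1.

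The detection columns of the file carry array codes in 2 runs, with 4 arrays per group in the first and 2 per group in the second. Within the first run Stau1 was at 1.62 (limma, adjusted p = 0.00274) and Fxr1 at 0.23 (limma, adjusted p = 0.0119), both still called. Stau2 was at 0.69 (limma, adjusted p = 0.0571) and Fmr1 at 0.15 (limma, adjusted p = 0.475) there. Within the second run the 4 differences were 2.24 for Stau1, 1.13 for Stau2, 0.53 for Fmr1 and 0.42 for Fxr1, each above its value in the first run, and none was called. In that run limma called 3 of the 9136 probes, and 3113 were at an unadjusted p under 0.05. The difference between runs was not tested. With the run as a block the differences were those given above, and Stau2 stayed called (limma, adjusted p = 0.0103).

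**Figure D4:**
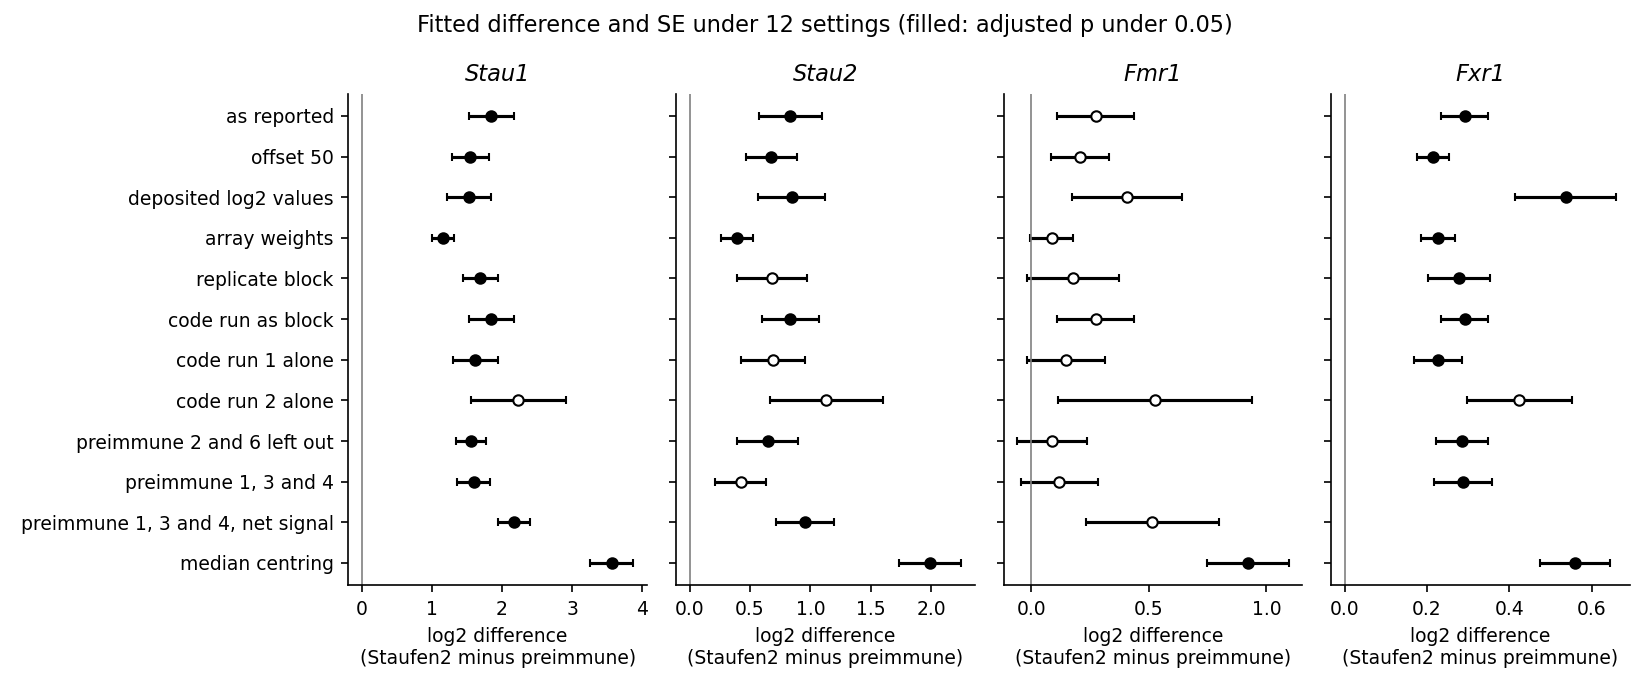
Fitted log2 difference (Staufen2 minus preimmune) with its SE for the 4 genes under 12 settings of processing or sample choice; the axes differ between panels. Filled points had an adjusted p under 0.05. Stau1 is called in all settings but the second code run alone, and the Stau2 point is open in 4 of them. Fmr1 is filled with median centring only, at 0.92.

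Within the groups the signals of the 4 genes moved together to differing extents. Across the 6 Staufen2 arrays the log2 raw signals of Fmr1 and Fxr1 had a Pearson correlation of 0.97, and those of Stau1 and Stau2 of 0.69. Stau2 and Fmr1 had 0.37 and Stau2 and Fxr1 0.43 on the same arrays. Across the 6 preimmune arrays all 6 pairs had 0.90 to 0.99. These arrays share their yield across all probes, and the values are a description.

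By Pearson correlation of normalized log2 values over all 12 arrays, the genes most like Stau1 were Glod4, Rpl15, a protein of the large ribosomal subunit, and Arf2, a small GTPase, each at 0.99. Most like Stau2 were Prkce, a protein kinase C isoform, Phactr3, a phosphatase and actin regulator, and Dok4, a docking protein of receptor kinases, at 0.98, 0.97 and 0.97. Most like Fmr1 were Pias1, a SUMO ligase, Pabpn1, the nuclear poly(A)-binding protein, and Dlx2, a homeobox factor of interneuron precursors, at 0.95, 0.95 and 0.93. Most like Fxr1 were MGC94512, Plcl1 and Cald1, an actin-binding protein, at 0.98 each. Correlation over 2 groups follows the difference between them, and these names are a description.

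The mRNAs of other proteins that have been found in neuronal RNA granules moved in both directions. Of 52 listed symbols 35 were tested. Among these 9 were called higher (25.7%) and 4 lower (11.4%), where 31.9% and 14.2% of the 9027 genes tested were called higher and lower, and 22 did not pass. The 9 include Casc3, at 0.07 ± 0.03 (SE; limma, adjusted p = 0.0469). Casc3 was detected on 0 preimmune arrays, and its bound there gave a fold of 0.95, so that call shows no enrichment. The median difference of the list was 0.07, as it was over all genes. Without Staufen2 replicate 2 only 5 were called higher. The number called lower was 2 without any one of Staufen2 replicates 0 to 3 and 7 without preimmune replicate 6.

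Rbm8a, which encodes the exon junction protein Y14, was the granule gene with the smallest adjusted p. Its raw signal was 7731 to 13413 on Staufen2 arrays and 67.5 to 211 on preimmune arrays, and its log2 difference was 3.99 ± 0.34 (SE; limma, adjusted p = 2.8e-06). Purb, a single-strand DNA- and RNA-binding protein, was higher by 1.58 ± 0.29 (SE; limma, adjusted p = 0.000637). Elavl3, a neuronal RNA-binding protein of the Hu family, was higher by 1.14 ± 0.20 (SE; limma, adjusted p = 0.000531). All 3 were also called higher on net signal, at 4.00, 1.99 and 2.12.

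Ncl, which encodes nucleolin, was lower, compared with the other probes, at -2.55 ± 0.30 (SE; limma, adjusted p = 2.3e-05). It was at 1.89 without scaling and at -0.07 with median centring, each below the median of all tested probes (2.57 and 0.62). Its raw signal was 1183 ± 520 (SD, n = 6) in Staufen2 and 373 ± 162 (SD, n = 6) in preimmune immunoprecipitates. Ddx3x, a DEAD-box RNA helicase, was lower, at -1.77 ± 0.47 (SE; limma, adjusted p = 0.00740), with -0.54 under median centring and 1.42 without scaling. Its raw signal was 129 ± 8.02 (SD, n = 6) in Staufen2 and 107 ± 8.16 (SD, n = 6) in preimmune immunoprecipitates. Mean array backgrounds were 80.8 and 73.1, so this signal was near background and hardly followed the yield, and loss of the mRNA was not tested. On net signal Ncl and Ddx3x were called lower, at -1.41 and -2.26.

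Staufen proteins share their double-stranded RNA-binding domain with RNA-editing enzymes, microRNA processing factors and the interferon-induced kinase PKR. Of 14 tested genes of this domain family other than the Staufen genes, 1 was called higher and 3 lower, 10 did not pass, and the median was -0.26. These shares of 7.14% and 21.4% stand beside 31.9% and 14.2% over all genes tested. The gene called higher was Eif2ak2, which encodes PKR, by 0.11 ± 0.03 (SE; limma, adjusted p = 0.00502). It was detected on 0 of 6 preimmune arrays, and its bound there gave no fold above 1.

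The 3 called lower were Adar, an RNA-editing enzyme, Drosha, the nuclear microRNA processing enzyme, and Dhx9, an RNA helicase. Adar was at -1.64 ± 0.50 (SE; limma, adjusted p = 0.0155), at -0.39 with median centring and at 1.56 without scaling. On net signal it was called lower, at -1.67 (limma, adjusted p = 9.2e-05). Its raw signal was also near background, at 152 ± 19.1 (SD, n = 6) in Staufen2 and 105 ± 8.71 (SD, n = 6) in preimmune immunoprecipitates. Drosha was at -0.94 ± 0.19 (SE; limma, adjusted p = 0.00117), but was called higher with median centring, at 1.23 (limma, adjusted p = 0.00115). Without scaling it was at 3.18, and both values lie above the medians of all tested probes (0.62 and 2.57). It was not called on net signal (-0.27, limma adjusted p = 0.173). Dhx9 was at -0.88 ± 0.32 (SE; limma, adjusted p = 0.0361) and was also called lower on net signal (-0.86, limma adjusted p = 0.0238). It was at 0.09 with median centring and 2.04 without scaling, each below the median of all tested probes (0.62 and 2.57). The difference between the Staufen paralogs and the list was not tested.

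Genes whose products are known to bind FMRP gave 1 called higher and 1 lower of 7 tested, with a median of -0.11. Each is a share of 14.3%, beside 31.9% higher and 14.2% lower over all genes tested. Kif3c, a kinesin motor subunit, was higher by 1.39 ± 0.39 (SE; limma, adjusted p = 0.0102), and by 1.53 on net signal. Smn1, the survival motor neuron gene, was lower, at -1.05 ± 0.21 (SE; limma, adjusted p = 0.00118), and at -0.59 on net signal (limma, adjusted p = 0.0101). With median centring it was called higher, at 1.14 (limma, adjusted p = 0.00918), and without scaling it was at 3.10. Both values lie above the medians of all tested probes (0.62 and 2.57). The counts for this list and for the double-stranded RNA-binding domain list moved by at most 1 when any single array was left out.

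**Figure D5:**
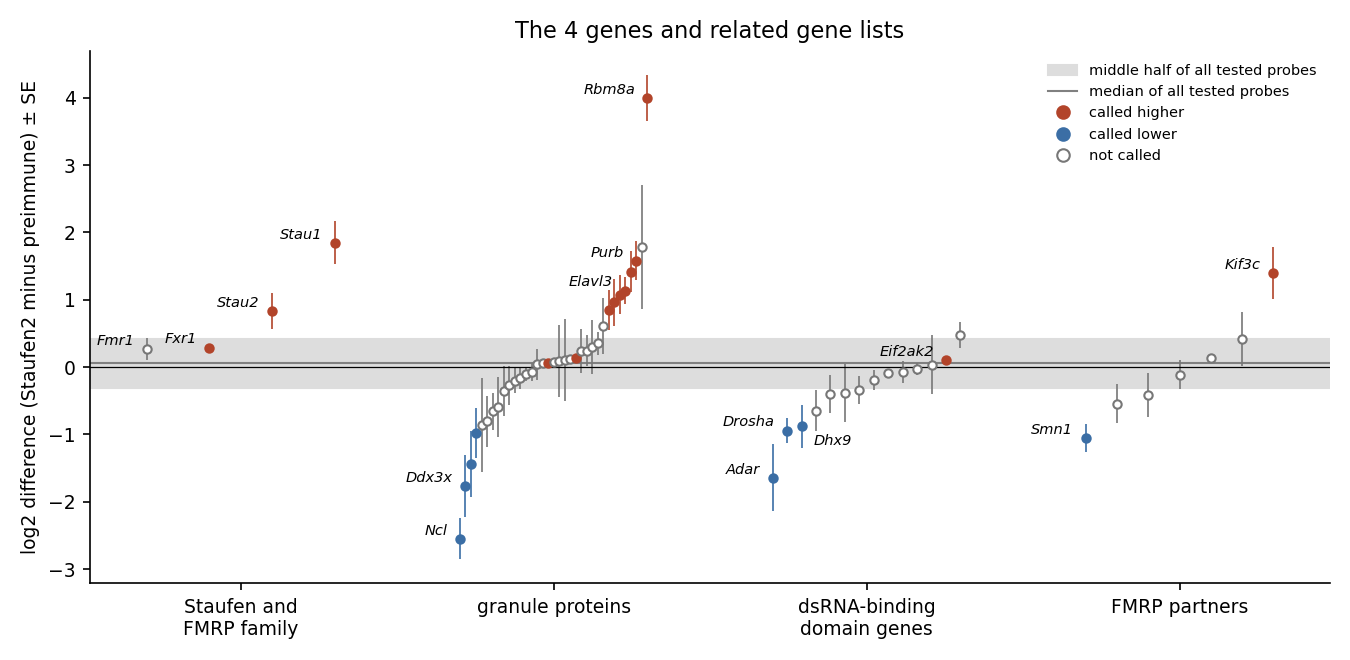
Log2 difference (Staufen2 minus preimmune, normalized values) with its SE for Stau1, Stau2, Fmr1 and Fxr1 and for the tested genes of the granule protein, double-stranded RNA-binding domain and FMRP partner lists, each sorted by value. Red points were called higher, blue points lower and open points not called; the grey band and line show the quartiles (-0.31 and 0.42) and the median (0.06) of all tested probes.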

How the data were processed

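For 22226 probes on 12 Illumina rat arrays the authors deposited the signal intensity, not yet scaled, with its detection p-value. Their deposited value table is in log2 and holds the same signals for all 22226 probes (tolerance 0.0001). RMA is named in the submitters' processing notes, without a version. Detection columns are headed by codes absent from the labels and were paired with the neighbouring signal column; in signal order, the paired column broke rank in at most 268 of 22225 neighbouring pairs of probes. The 12 bead standard error columns were not used.

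Signals were corrected with limma 3.58.1 (R 4.3.3), using normexp on the detection p-values (offset 16), then quantile normalized over all probes. Probes with detection p under 0.05 on at least 6 arrays were tested with lmFit and eBayes (intensity trend, two-sided) and Benjamini-Hochberg adjustment over 9136 probes. A gene with several tested probes is represented by the one with the highest mean. An array's background was the median signal of probes with detection p-values of 0.45 to 0.55. Where no array of a group detected a probe, a bound from the lowest detected values was used. The fit was tested on simulated data in which all arrays had the same yield. That test therefore does not cover the yield difference between the groups seen here. Named genes were the 4 members, up to 3 genes with the smallest adjusted p per direction and list, and the 3 best-correlated genes per member. Some single-gene results are left out. Members, lists and tests were chosen with earlier results of these data known. Probe symbols were updated for naming alone, through RefSeq's GRCr8 gene table; 5204 probes matched no entry and kept the file's symbol. The settings tried are given in the closing section.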

Additional observations from a re-analysis of the deposited data

How the results depend on the processing

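Of the 9136 tested probes, except where another number is given, 6765 were called higher and 554 lower with median centring (each array on the median of all probes), 9135 and 0 without scaling, 469 and 715 of 1683 on bright-probe net signal, 261 and 960 of the 1683 probes detected on all 12 arrays, 2 and 1 in the second code run alone, 2879 lower with array weights, 2361 lower without preimmune replicates 2 and 6, and 2553 lower with preimmune replicates 1, 3 and 4 only. In the fit without scaling 0 probes were lower at an adjusted p under 0.05, and its limma p-values are not given because all probes of an array share its yield. Fmr1 was called at 0.92 with median centring and 2.88 without scaling. Stau2 was not called with preimmune replicates 1, 3 and 4 (0.42), in the first run (0.69) or in the second (1.13), where Stau1 (2.24) and Fxr1 (0.42) were not called either. The pairs Stau2 minus Fmr1 and Stau2 minus Fxr1 passed with median centring (1.07 and 1.43) and in the first run (0.54 and 0.46). Fmr1 minus Fxr1 turned to 0.36 with median centring. Array weights lowered Stau1 to 1.16, Stau2 to 0.39, Fmr1 to 0.09 and Fxr1 to 0.23, with no call among them changed. Stau1 was at 1.53 on the deposited log2 values and at 1.56 without preimmune replicates 2 and 6. The cause of these changes was not tested.

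Leaving out 1 array at a time gave 1.67 to 2.00 for Stau1, 0.74 to 0.99 for Stau2, 0.20 to 0.35 for Fmr1 and 0.25 to 0.33 for Fxr1, with no call changed. Probes called higher ran from 2673 to 2984 and lower from 1072 to 1838. Stau2 minus Fmr1 ran from 0.46 to 0.68 and Stau2 minus Fxr1 from 0.46 to 0.66, both passing without Staufen2 replicate 4, preimmune 3 or preimmune 4. Fmr1 minus Fxr1 ran from -0.090 to 0.039 and changed sign without Staufen2 replicate 1 (0.0090), preimmune replicate 1 (0.039) or preimmune replicate 5 (0.036). The differences of Stau1 from each of the other 3 kept their direction and their call in all alternatives run.

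The labels share the replicate numbers 1 to 5 between groups. Deviations of same-numbered arrays correlated at -0.14 to 0.31, with 3 of 5 over 0.1. Those of differently numbered arrays correlated at -0.43 to 0.55. With so few pairs these values do not settle whether the numbers pair the arrays. With the replicate block, 2631 probes were higher and 1616 lower, Stau2 was at 0.69 (limma, adjusted p = 0.0775) and no other call among the 4 genes changed. The pair tests were not run with blocks, weights, no filter, no intensity trend or in the second run. Without scaling the pair differences are those of median centring, because centring cancels within an array. The bright-probe set and the probes detected on all 12 arrays held 0 of the 4 genes. The settings with preimmune replicates 1, 3 and 4 and without an intensity trend were added after seeing the data. Preimmune signals near background limit the sizes of the differences.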
